A study of Mus musculus with 2 samples.

Results

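The 8 cathepsin genes *Ctsl*, *Ctss*, *Ctsb*, *Ctsd*, *Ctsz*, *Ctsw*, *Ctsc* and *Ctsa*, which encode lysosomal proteases, were followed through the thymus of WT and *Cdc42*-deleted mice, as 8 of the 20282 genes in the counts matrix. The genes were taken by name, and the list was chosen by their measured values in these same libraries, *Ctsl* first of all for its lower level in the KO library, so that its difference between the libraries is given as a description with no test. Whole thymus was profiled by single-cell RNA sequencing from Cdc42f/f mice (WT) and from Cdc42f/f CD4Cre mice (KO) at 6 weeks of age, with the floxed allele carried by both groups. Cre was driven by the *CD4* promoter, which acts from the double positive (DP) stage, so the less mature thymocytes and the non-T cells of the KO thymus were not its intended target. The cells of 5 mice were pooled into 1 library per genotype, so there was no replicate and no test between genotypes, and intervals below are at 95% and cover counting error only. KO and WT stand for the libraries so labelled, and the cell names give WT or KO after Cdc45 where the sample titles write cdc42.

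Cathepsins are made as proenzymes, sorted to the lysosome and activated there at low pH. *Ctsl*, *Ctss*, *Ctsb*, *Ctsz*, *Ctsw* and *Ctsc* encode cysteine proteases, *Ctsd* an aspartic protease and *Ctsa* a serine carboxypeptidase. In the thymus, cathepsin L of cortical epithelial cells and cathepsin S of B cells, macrophages and dendritic cells are known for cutting the invariant chain and the peptides that MHC class II molecules present, and cathepsin W is known from cytotoxic lymphocytes.

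The matrix held 6115 WT and 7568 KO cells with 29706197 and 37920214 UMIs (tagged mRNA molecules) and a median of 3192 and 3401 UMIs per cell. The deposited clusters were named by a leading gene: 5 *Rag1* clusters (DP-like), 2 *Cd5* clusters (DP cells with activation genes), an *Itm2a* and an *Ms4a4b* cluster (early and mature single positive, SP, like), 4 larger clusters rich in proliferation genes (10 to 13), a *Lars2*, a *Myl10*, a *Cd74* and an *Apoe* cluster, and clusters 17 and 18, of 52 and 32 cells, which were also rich in proliferation genes. All 8 DP markers were detected in the *Rag1* clusters and all 12 macrophage markers in the *Apoe* cluster, which had 30 WT and 49 KO cells. *Cdc42* itself had 3889 WT and 4923 KO UMIs in the *Rag1* clusters, and since the 3′ tag need not lie in the deleted part, these counts do not check the labels. The libraries shared 17 cell barcodes. Of 12 thymic epithelial genes 8 had rows, and together they gave 107 WT and 243 KO UMIs in the *Myl10* cluster, where their level was highest, so *Ctsl* of epithelial cells is not described here.

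*Ctsl* lies on the minus strand at chr13:64359337-64370890 in mm10 (GENCODE vM21), and the other 7 genes lie on chromosomes 2, 3, 7, 14 and 19. RefSeq start-site windows, 250 bases before to 50 after the start in GRCm38.p6, were found for 6 of the 8 genes. The windows of *Ctsl* (chr13:64370471-64370770, minus strand) and *Ctsd* (chr7:142387778-142388077, minus strand) are shown because these were the 2 members with the most UMIs in DP cells and their KO to WT ratios differed. Both are written 5′ to 3′, with the E-box core CACGTG, which reads alike on both strands, in capitals.
Ctsl: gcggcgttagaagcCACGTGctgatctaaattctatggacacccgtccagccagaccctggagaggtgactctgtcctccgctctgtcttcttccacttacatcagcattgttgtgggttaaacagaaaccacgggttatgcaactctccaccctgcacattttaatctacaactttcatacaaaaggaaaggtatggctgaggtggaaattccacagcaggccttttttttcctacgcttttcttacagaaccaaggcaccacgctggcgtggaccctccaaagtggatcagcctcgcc
Ctsd: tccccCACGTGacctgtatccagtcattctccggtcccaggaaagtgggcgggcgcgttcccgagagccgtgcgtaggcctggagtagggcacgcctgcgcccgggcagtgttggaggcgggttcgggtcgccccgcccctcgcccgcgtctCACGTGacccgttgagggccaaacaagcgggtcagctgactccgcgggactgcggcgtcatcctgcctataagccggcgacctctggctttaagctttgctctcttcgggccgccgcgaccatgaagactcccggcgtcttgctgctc
The core stood 236 bases before the RefSeq start site of *Ctsl* and 245 and 98 bases before that of *Ctsd*. The annotations differ in the start sites. The whole *Ctsl* window lies inside the GENCODE span given above, so by GENCODE this core is within the gene and not upstream. The GENCODE span of *Ctsd*, chr7:142375911-142388038, takes in its core at 98 bases but not that at 245. It was present in 3 of the 7 member windows (*Ctsa* has 2 windows, of which 1 holds it). Of 14919 windows of genes in the matrix 9.42% held it, with 1 chromosome that carries no member left out. A match of letters is a description and not a bound site.

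*Ctsl* was among the most abundant messages of WT DP cells and was far lower in the KO library. Levels are in CPM, a gene's UMIs summed over the cells of a cluster in 1 library per 1000000 UMIs of those cells, with 1 tag per molecule and no scaling for gene length. In the 5 *Rag1* clusters the level was 2265, 2425, 2331, 2417 and 2422 CPM in WT, and 318, 339, 336, 324 and 341 in KO, so that the libraries did not overlap in any cluster and the clusters within a library hardly differed. Summed over the 5 clusters, 25752 UMIs in 3636 WT cells stood against 5087 in 4641 KO cells, 2370 and 331 CPM. That is a log2 ratio of KO over WT of -2.84 (-2.88 to -2.80), or 7.16-fold lower. By level *Ctsl* ranked 39 among all genes in WT and 404 in KO.

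**Figure D1:**
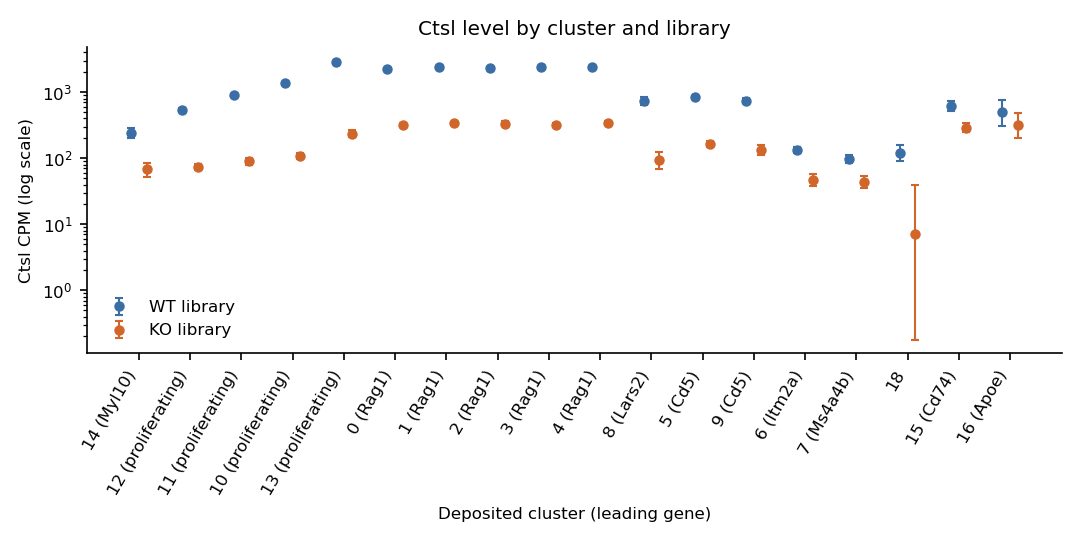
Level of *Ctsl* in each deposited cluster, as CPM on a log axis, in the WT and KO libraries, with points for summed counts and bars for Poisson 95% intervals (cluster 17, with 1 WT UMI and 0 KO UMIs, is not drawn). The WT points sit above the KO points in every cluster drawn, and the intervals overlap only in the *Apoe* cluster.

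Cell by cell, the KO library had no separate group of DP cells at the WT level of *Ctsl*. Of the WT cells in the *Rag1* clusters 96.5% (95.9 to 97.1, Clopper-Pearson) held at least 1 *Ctsl* UMI, with a mean of 7.08 per cell, against 59.5% (58.1 to 60.9) and 1.10 in KO. After each cell was thinned to 1000 UMIs, the shares were 84.2% and 27.0%, with 37 WT and 10 KO cells too shallow to enter. For comparison, *Ctss*, which DP cells hardly make, had a UMI in 0.248% of the WT and 0.0646% of the KO cells at median depths of 2823 and 3097 UMIs. At least 5 *Ctsl* UMIs were found in 65.8% of the WT and 2.20% of the KO cells. The KO cells without a *Ctsl* UMI, 40.5%, stood beside the 35.1% that counting alone gives when every cell has the same rate. With each cell's depth allowed for, the spread of the counts (variance) was 1.44 times the Poisson value in KO and 2.82 times in WT.

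**Figure D2:**
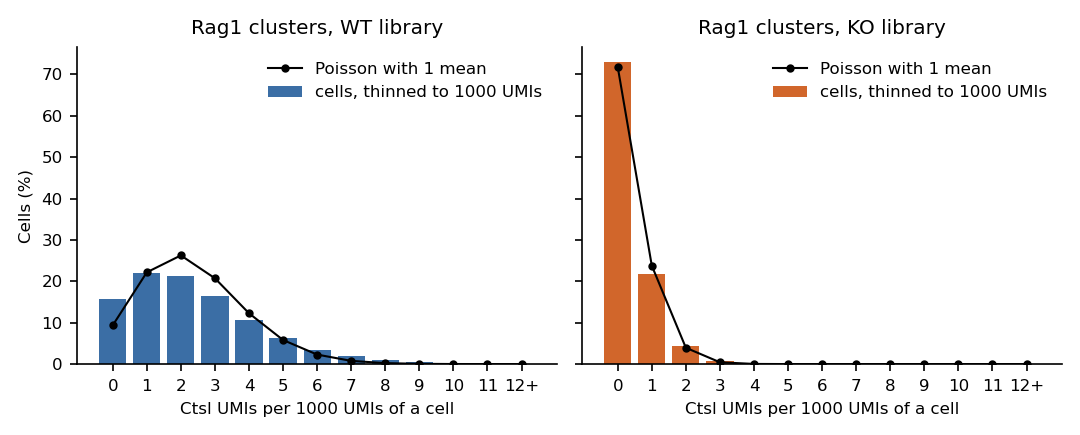
Share of cells of the *Rag1* clusters (percent, bars) by their number of *Ctsl* UMIs after thinning each cell to 1000 UMIs, in WT (left) and KO (right), with the Poisson distribution of the same mean (black points). The WT cells form 1 broad hump and the KO cells pile up at 0 and 1, with no further group of cells at WT levels.

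Outside the resting DP cells *Ctsl* followed the stage of the thymocytes, and it was lower in KO at each stage. In the WT library the highest level, 2870 CPM, was in cluster 13, where both proliferation genes and *Rag1* were high, and the 5 *Rag1* clusters came next. The other large proliferating clusters followed with 1394 in cluster 10, 910 in cluster 11 and 546 in cluster 12. The *Cd5* clusters held 835 and 745. In the WT order of levels clusters 11, 5, 9, 8, 15 and 12 did not part from their next neighbour beyond the intervals, nor did the *Rag1* clusters from each other in that order. The *Myl10* cluster, rich in early and gamma-delta T cell genes, had 241, the *Itm2a* cluster 133 (120 to 147) and the *Ms4a4b* cluster 97.5 (85.2 to 111).

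In KO the same clusters held 237 (cluster 13), 108, 89.5 and 73.0 (clusters 10, 11 and 12), 164 and 133 (*Cd5*), 67.6 (*Myl10*), 46.8 (*Itm2a*) and 43.7 (*Ms4a4b*). The clusters with 50 or more cells in a library, the *Cd74* and *Apoe* clusters aside, spanned 29.4-fold in WT and 7.81-fold in KO. Below that size, cluster 17 had 1 WT UMI and no KO UMI, and cluster 18 had 53 and 1. The log2 ratio was -3.60 (-3.79 to -3.42) in cluster 13 and -3.69 (-3.84 to -3.54) in cluster 10, the widest gaps of the larger clusters. In cluster 13 the erythroid list stood at 1720 CPM in WT and 0.887 in KO, and its part in the result was not tested. The ratio was -2.39 (-2.53 to -2.25) in the *Cd5* clusters and -1.83 (-2.28 to -1.40) in the *Myl10* cluster. The *Itm2a* cluster gave -1.50 (-1.86 to -1.17) and the *Ms4a4b* cluster -1.15 (-1.51 to -0.81). By counting error the ratios of the *Rag1*, *Cd5* and 4 larger proliferating clusters lay apart from those of both SP clusters. With the *Itm2a* cluster of resolution 1.8 or 2 in its place, the SP ratio was -2.12 (-2.54 to -1.74) on 249 and 68 UMIs, and this interval overlapped that of the *Cd5* clusters. In the *Lars2* cluster *Ctsl* stood at 728 in WT and 93.8 in KO, beside 3.45 and 14913 CPM of the neutrophil list, whose part was not tested.

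Within the SP clusters of the WT library *Ctsl* was highest in cells with UMIs of both coreceptors, and in KO this was so in the *Ms4a4b* cluster. Among *Ms4a4b* cells the WT level was 285 CPM in cells with *Cd4* and *Cd8* UMIs, 38.1 in cells with *Cd4* alone and 53.8 in cells with *Cd8a* or *Cd8b1* alone, and the KO levels were 85.1, 13.7 and 33.3. Among *Itm2a* cells the WT levels were 248, 53.6 and 144 and the KO levels 58.9, 26.5 and 62.0. The WT value was therefore above the KO value in each of these classes. The intervals overlapped for *Cd4* alone in both clusters and for *Cd8* alone in the *Ms4a4b* cluster. In *Ms4a4b* cells with *Cd4* alone they were 23.0 to 59.6 and 5.03 to 29.8, on 19 WT and 6 KO UMIs. *Rag1*, a DP gene, was taken as a measure of DP RNA in SP cells, either free or in doublets. *Rag1* RNA of the SP cells themselves cannot be told apart from it. At the *Ctsl* to *Rag1* ratio of the *Rag1* clusters (0.810 in WT, 0.120 in KO), the 228 and 202 *Rag1* UMIs of the *Itm2a* cluster would go with 185 and 24.3 *Ctsl* UMIs, and 406 and 88 were counted. For the *Ms4a4b* cluster, with 207 and 418 *Rag1* UMIs, 168 and 50.2 would be due and 227 and 99 were counted. These values depend on the cells taken as the source, since the ratio was 3.37 in WT and 0.604 in KO in the *Cd5* clusters. The part of DP RNA in the SP levels of *Ctsl* was not tested further.

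None of the genes around *Ctsl* was lower in KO by 1.5-fold, apart from a transcript that overlaps it. *Gm47123*, annotated as antisense within the *Ctsl* span (chr13:64361052-64363022, plus strand), had 82 UMIs in WT and 23 in KO in the *Rag1* clusters, a log2 ratio of -2.31 (-3.07 to -1.65). Whether the counting used strand is not given in the sources used here, so its reads and those of *Ctsl* cannot be told apart. The 7 other genes within 500 kb with 20 or more UMIs, looked up after the *Ctsl* values were seen, ranged from -0.28 (*Ercc6l2*) to 1.18 (*Cdc14b*, 51 and 164 UMIs). The nearest, *Cdk20*, a kinase gene 61.4 kb away, had 281 and 365 UMIs and a ratio of -0.12 (-0.35 to 0.11).

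Against all genes *Ctsl* lay at the low end of the KO to WT ratios in DP cells. A gene was counted as called when it had 20 or more UMIs over both libraries and a fold of at least 1.5. In the *Rag1* clusters 2.57% of 12983 genes were lower and 5.8% higher in KO by this rule. Of the 7 members that passed, *Ctsl* was lower, *Ctsw* was higher on 29 and 79 UMIs, and 5 lay within 1.5-fold. This contrast helped choose the list, so nothing is read from that count. Among the 8523 genes with 200 or more UMIs only *Wnt8b* (509 and 7 UMIs, named after its values were seen) was lower than *Ctsl* on the log2 scale. By the size of the ratio in either direction *Ctsl* ranked 4. *Gm45315* (63 and 2615 UMIs) and *2610035D17Rik* (0 and 214), also named after their values were seen, differed more and were higher in KO.

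**Figure D3:**
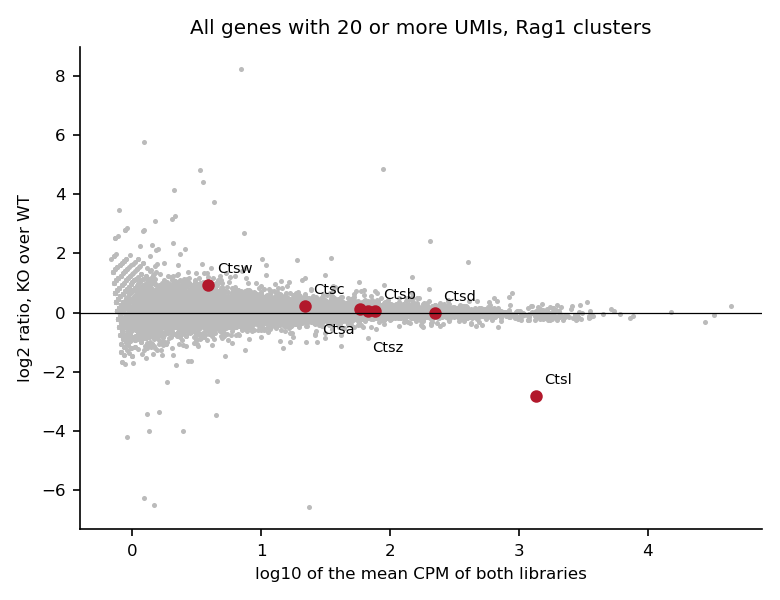
Log2 ratio of KO over WT against the log10 mean level (CPM) for the 12983 genes with 20 or more UMIs in the *Rag1* clusters, with all genes in grey and the members that passed in red. *Ctsl* lies alone at a high level and a ratio of -2.84, and *Ctsb*, *Ctsd*, *Ctsz*, *Ctsc* and *Ctsa* lie near 0.

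The other 7 cathepsins had patterns of their own by stage. *Ctsd*, the aspartic protease, was the second member of DP cells. It stood at 225 CPM in WT and 223 in KO in the *Rag1* clusters (2450 and 3427 UMIs), a log2 ratio of -0.02 (-0.09 to 0.06), so a difference of the size seen for *Ctsl* lies far outside its interval. From there *Ctsd* was lower in the *Cd5* clusters, 107 and 119, and stayed at 114 and 119 in the *Itm2a* cluster. In the *Ms4a4b* cluster *Ctsd* was 131 in WT and 179 in KO, a ratio of 0.44 (0.23 to 0.66), beside a median of 0.24 over all genes there, and 0.18 (-0.03 to 0.40) with TMM factors, which shift that median by -0.26.

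*Ctsb*, *Ctsz* and *Ctsa* varied less across thymocytes than *Ctsl* did. In the *Rag1* clusters *Ctsb* stood at 75.5 and 78.2, *Ctsz*, a carboxypeptidase, at 66.4 and 69.4, and *Ctsa* at 55.9 and 61.1 CPM in WT and KO. Over the clusters with 50 or more WT cells, the *Cd74* and *Apoe* clusters aside, the span was 2.44-fold for *Ctsb*, 3.94-fold for *Ctsz* and 3.11-fold for *Ctsa*. Cluster 17, with 26 WT cells, had no WT UMI of these genes. Their log2 ratios in the *Rag1* clusters were 0.05 (-0.08 to 0.18), 0.06 (-0.07 to 0.20) and 0.13 (-0.02 to 0.28). Counting error alone left out 0 at later stages for *Ctsb* in the *Cd5* clusters (0.39, 0.07 to 0.72), *Ctsz* in the *Itm2a* cluster (0.45, 0.11 to 0.78) and *Ctsa* in the *Itm2a* (0.41, 0.04 to 0.79) and *Ms4a4b* clusters (0.54, 0.20 to 0.88), all higher in KO and all within 1.5-fold. With TMM factors, which shift the median of all genes by -0.17 in the *Itm2a* cluster, the intervals of *Ctsz* (0.28, -0.06 to 0.61) and *Ctsa* (0.25, -0.13 to 0.62) there held 0, as did that of *Ctsa* in the *Ms4a4b* cluster (0.28, -0.06 to 0.62).

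*Ctsc*, cathepsin C, which activates granzymes, was low in DP cells and higher after them in both libraries. Its level was 20.2 and 23.6 CPM in the *Rag1* clusters, 53.9 and 51.5 in the *Cd5* clusters, 70.8 and 87.7 in the *Itm2a* cluster and 63.1 and 76.8 in the *Ms4a4b* cluster, in WT and KO. The libraries differed by less than 1.5-fold at each of these stages, with log2 ratios of 0.22, -0.07, 0.31 and 0.28, and only the interval in the *Itm2a* cluster (0.01 to 0.61) left out 0, which with TMM factors it did not (-0.16 to 0.44). The *Myl10* cluster had 14 WT and 55 KO *Ctsc* UMIs, 26.4 and 55.5 CPM, a ratio of 1.03 (0.21 to 2.03), past 1.5-fold. *Ctsa* there had 19 and 59 UMIs and a ratio of 0.71 (-0.03 to 1.56), also past 1.5-fold. From the highest ratio down, *Ctsc* ranked 213 and *Ctsa* 552 of 7382 genes in that cluster.

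*Ctss*, cathepsin S, was nearly absent before the SP stage and highest among thymocytes in the *Ms4a4b* cluster. It had 9 WT and 6 KO UMIs in all *Rag1* cells and 2 and 3 in the *Cd5* clusters. In the *Itm2a* cluster 185 and 37 UMIs gave 60.6 and 19.7 CPM, a log2 ratio of -1.61 (-2.17 to -1.11). The *Ms4a4b* cluster had 416 and 275, 179 and 121 CPM, a ratio of -0.56 (-0.78 to -0.34). A *Ctss* UMI was found in 65.4% of WT and 44.7% of KO cells of the *Ms4a4b* cluster at median depths of 6738 and 5032, and in 17.1% and 11.4% of them after thinning to 1000 UMIs. At the ratio of *Ctss* to macrophage genes of the *Apoe* cluster, the macrophage UMIs among these cells would go with 1.05 *Ctss* UMIs in WT and 3.72 in KO, against 416 and 275 counted.

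*Ctsw*, cathepsin W, was likewise an SP gene and was higher in cells with *Cd8a* or *Cd8b1* UMIs alone than with *Cd4* UMIs alone. It stood at 2.67 and 5.14 CPM in the *Rag1* clusters, 6.29 and 6.72 in the *Cd5* clusters, 96.7 and 42.5 in the *Itm2a* cluster and 214 and 194 in the *Ms4a4b* cluster, in WT and KO. KO was lower in the *Itm2a* cluster, with a ratio of -1.18 (-1.56 to -0.82). The ratio was -0.14 (-0.33 to 0.05) in the *Ms4a4b* cluster, and -0.40 (-0.59 to -0.21) with TMM factors. In WT cells of the *Ms4a4b* cluster it was 301 in cells with *Cd8a* or *Cd8b1* UMIs alone against 118 in cells with *Cd4* UMIs alone, 2.52-fold (1.90 to 3.43), and in KO 233 against 105, 2.20-fold (1.57 to 3.18). Cells of this cluster with no UMI of either coreceptor held 276 (231 to 326) in WT and 296 (251 to 347) in KO. In KO this was the highest class. Such cells of the *Itm2a* cluster held 74.4 in WT and no *Ctsw* UMI in KO. In the *Itm2a* cluster the folds of *Cd8* over *Cd4* cells were 3.80 (2.76 to 5.41) in WT and 2.53 (1.29 to 5.32) in KO. *Ctsl* had such a fold in the *Itm2a* cluster, 2.66 (1.91 to 3.82) in WT and 2.31 (1.13 to 5.06) in KO, while its intervals in the *Ms4a4b* cluster held 1. No such fold was seen for *Ctsb*, *Ctsz*, *Ctsc* or *Ctsa*, whose intervals held 1 in both clusters and both libraries. *Ctsd* was 1.63-fold (1.22 to 2.21) higher in the *Cd8* cells of the WT *Itm2a* cluster, and *Ctss* was lower in those of the KO *Ms4a4b* cluster, 0.618-fold (0.414 to 0.912).

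Beside *Ctss* and *Ctsw*, the make-up of the *Itm2a* cluster differed between the libraries. The mature SP list stood at 4960 CPM in WT and 4057 in KO in that cluster, and the list of signalled and early SP genes at 4426 and 6076, all 8 genes of each being detected, and their part in the result was not tested. At resolution 2 the deposited clusters divided its cells mostly between a cluster with the highest *Itm2a* and another. In the first, *Ctss* had 5 WT and 15 KO UMIs and its ratio was 1.24 (-0.20 to 3.14), while *Ctsw* gave -0.69 (-1.57 to 0.14). In the other, *Ctss* had 190 WT and 24 KO UMIs, 84.4 and 27.5 CPM, and *Ctsw* stood at 121 and 77.9 CPM. The lower KO level of *Ctss* was thus seen in the cluster that held most of its UMIs and not in the first. That other cluster, of 325 WT and 136 KO cells, itself differed between the libraries. *Ms4a4b* stood there at 467 CPM in WT and 292 in KO, and *Itm2a* at 1285 and 1861. The part of this in the *Ctss* and *Ctsw* levels was not tested.

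**Figure D4:**
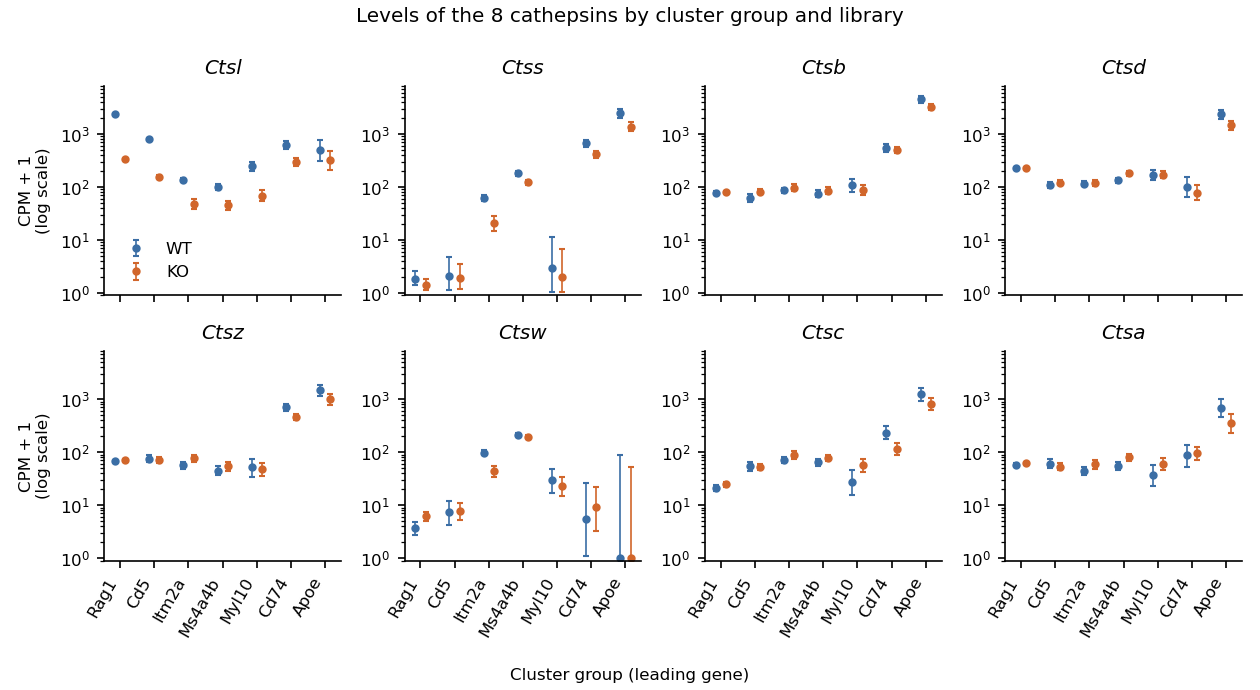
Levels of the 8 cathepsins in 7 cluster groups, as CPM plus 1 on a log axis, in WT and KO, with Poisson 95% intervals. *Ctsl* is highest in the *Rag1* clusters, *Ctss* and *Ctsw* appear at the *Itm2a* and *Ms4a4b* stages, and *Ctsb*, *Ctsd*, *Ctsz*, *Ctsc*, *Ctsa* and *Ctss* peak in the *Apoe* cluster.

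By the rule of 1.5-fold, *Ctsl* was the only member called in the *Cd5* and *Ms4a4b* clusters. In the *Itm2a* cluster 3 of 8 members were called. In the *Cd5* clusters 3.56% of 9854 genes were lower and 7.02% higher, and of 7 members *Ctsl* was lower and none was higher. In the *Itm2a* cluster 4.95% were lower and 11.3% higher, and of 8 members *Ctsl*, *Ctss* and *Ctsw* were lower. In the *Ms4a4b* cluster 5.55% were lower and 21% higher, and of 8 members *Ctsl* was lower and 7 were within 1.5-fold. The split over all genes there rests on the scaling: 532 lower and 2012 higher as reported, against 1081 and 909 with TMM factors. For the *Itm2a* cluster it was 485 and 1106, against 855 and 574. *Ctss* in the *Ms4a4b* cluster passed 1.5-fold with TMM factors (-0.82).

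**Figure D5:**
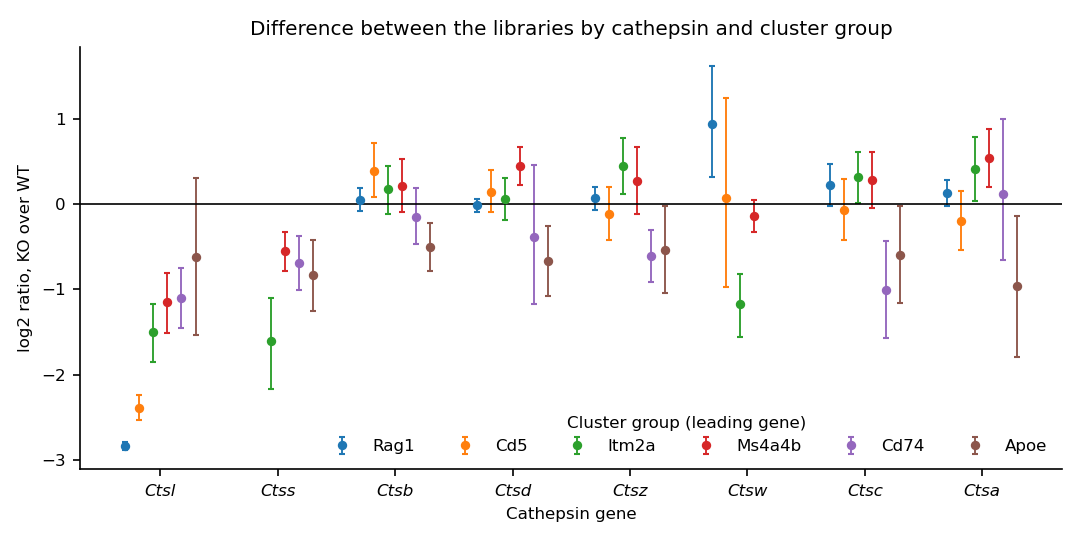
Log2 ratio of KO over WT for each cathepsin with 20 or more UMIs in 6 cluster groups, with exact conditional binomial 95% intervals for counting error. *Ctsl* lies below 0 in all 6 groups, from -2.84 in the *Rag1* clusters to -0.63 in the *Apoe* cluster, where the interval holds 0, and *Ctss* (-1.61) and *Ctsw* (-1.18) also lie below 0 in the *Itm2a* cluster, as does *Ctss* (-0.56) in the *Ms4a4b* cluster.

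The non-T cells held the most of every member but *Ctsl* and *Ctsw*. In the *Apoe* cluster (macrophage-like) the WT and KO levels were 4517 and 3184 CPM for *Ctsb*, 2341 and 1473 for *Ctsd* and 2460 and 1375 for *Ctss*. They were 1466 and 1010 for *Ctsz*, 1230 and 814 for *Ctsc* and 686 and 351 for *Ctsa*, while *Ctsw* had no UMI among the 30 WT and 49 KO cells. The KO level was the lower for all 7 members that passed, and 5 were lower by 1.5-fold or more, where 18.8% of 839 genes were lower and 18.1% higher (158 and 152, against 102 and 213 with TMM factors). The gaps of *Ctsb*, *Ctsd* and *Ctss* rested on 1 WT cell of 13049 UMIs, which held the most UMIs of each of the 7 members, 89 of 191 for *Ctsb*, 56 of 99 for *Ctsd* and 62 of 104 for *Ctss*. Without it, a choice made after the values were seen, the WT levels were 3489, 1471 and 1437, and the ratios were -0.14 (-0.48 to 0.22) for *Ctsb*, -0.01 (-0.52 to 0.55) for *Ctsd* and -0.07 (-0.60 to 0.49) for *Ctss*. The intervals of all 7 members then held 0. The removal was from WT only. The top KO cells stayed in (38 of 227 UMIs for *Ctsb*, 17 of 105 for *Ctsd*, 29 of 98 for *Ctss*). The neutrophil list stood at 28602 CPM in KO, in 1 cell, and at 0 in WT, and without that cell *Ctsb* stood at 3470 and *Ctsd* at 1559 in KO.

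For *Ctsl* in macrophage-like cells the interval held 0. It had 21 WT and 23 KO UMIs, 497 and 323 CPM, a log2 ratio of -0.63 (-1.54 to 0.30). That interval does not reach the -2.84 of the *Rag1* clusters, and without the same WT cell the ratio was -0.69 (-1.67 to 0.37). DP RNA would bring 0.810 and 2.52 of those UMIs by the *Rag1* count.

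The *Cd74* cluster held B-like and dendritic-like cells in unlike shares, 18 of 63 WT and 59 of 87 KO cells having 5 or more UMIs of the B cell list, a limit set after the values were seen. The B cell list stood at 7433 CPM in WT and 43837 in KO, and the macrophage list at 3360 and 977, and their part in the results was not tested. Of 7 members *Ctsl*, *Ctss*, *Ctsz* and *Ctsc* were lower in KO by 1.5-fold or more, beside 15.6% of 4763 genes lower and 21.5% higher. *Ctsl* stood at 627 and 292 CPM, a ratio of -1.10 (-1.45 to -0.76), with 28 of the 138 WT UMIs in 1 cell. Among the cells with 5 or more B cell UMIs it was 1024 and 313. Among the rest it was 105 (50.5 to 194) and 191 (109 to 310) on 10 and 16 UMIs. These last intervals overlap, so no direction is read there. The limit also sorts by depth, with WT and KO medians of 5640 and 4885 UMIs per cell above it and 850 and 1146.5 below.

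The lysosome around the cathepsins did not share the *Ctsl* difference in DP cells. Of 40 lysosomal genes 37 passed in the *Rag1* clusters, none was lower and *Pla2g15* (38 and 82 UMIs), *Sgsh* (13 and 31) and *Galc* (21 and 48) were higher, beside 2.57% of all genes lower and 5.8% higher, with a list median of 0.12 beside 0.05 over all genes. *Lamp1*, a membrane protein of the lysosome, stood at 145 and 152 CPM and *Psap*, the precursor of the saposins, at 287 and 308. Of the 16 subunits of the proton pump (V-ATPase) 15 passed and none was called, with a median of 0.04. Of 14 sorting genes and their regulators all passed and only *Mitf* was lower, on 16 and 15 UMIs. *M6pr*, a receptor that carries new cathepsins to the lysosome, stood at 62.7 and 74.8.

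In DP cells the inhibitors and the remaining cathepsins were near the background too. *Cst3* (cystatin C) stood at 192 and 199 CPM and *Cstb* (cystatin B) at 103 and 113 in the *Rag1* clusters. Of 10 inhibitor genes in the matrix 6 passed there and *Ctla2a*, whose product inhibits cathepsin L, was higher on 21 and 46 UMIs (0.61, -0.14 to 1.45). Of 6 other cathepsin genes in the matrix *Ctso* and *Ctse* passed, at 47.0 and 52.3 and at 12.2 and 13.8, and neither was called. *Ctsh* stood at 378 and 589 CPM in the *Apoe* cluster, where it was called higher (0.61), beside 18.1% of all genes. In the *Cd74* cluster it was called lower, beside 15.6% of all genes.

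In SP cells the counts of the lists followed the scaling. In mature SP cells (*Ms4a4b*) 37 of the 40 lysosomal genes passed, 2 were lower and 10 higher, beside 5.55% of all genes lower and 21% higher, with a median of 0.31 beside 0.24 over all genes, and with TMM factors 2 were lower and 4 higher, with a median of 0.05. Of 15 V-ATPase genes 4 were higher, and none with TMM factors, where the median turned from 0.17 to -0.09. Of 11 sorting genes 4 were higher, among them *Tfeb* and *Tfe3*, regulators of lysosomal genes, and 1 with TMM factors. In the *Itm2a* cluster 33 lysosomal genes passed, none was lower and 4 were higher, beside 4.95% and 11.3% of all genes, against 1 and 1 with TMM factors. Of 8 cytotoxic genes in the *Ms4a4b* cluster *Gzmb* (13 and 41 UMIs) and *Ccl5* (498 and 764) were higher and none was lower, beside the same 21% and 5.55% of all genes, against 2 lower and 1 higher with TMM factors.

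In macrophage-like cells (*Apoe* cluster) 11 of 20 lysosomal genes were lower in KO, beside 18.8% of all genes, and 4 with TMM factors, beside 102 of 839. All 5 MHC class II genes that passed were lower under either scaling, among them *H2-Aa* at 2720 and 757 CPM. Of the same list *H2-Aa* and *Ifi30* were lower of 9 that passed in the *Rag1* clusters, beside 2.57% of all genes. *Cd74* and *Ifi30* were lower of 5 in the *Itm2a* cluster, beside 4.95%. *H2-DMa* and *H2-Oa* were lower of 5 in the *Ms4a4b* cluster, beside 5.55%. With a minimum of 50 UMIs 3 genes of the list passed in the *Rag1* clusters and none was lower. With that minimum 2 of 5 were lower in the *Itm2a* cluster and 2 of 4 in the *Ms4a4b* cluster. In the *Cd74* cluster 4 of 11 were lower, *H2-Aa*, *H2-Ab1*, *H2-Eb1* and *Ciita*, beside 15.6% of all genes. In the *Cd5* clusters none of 4 was, beside 3.56%. *H2-Ob* was higher in the *Ms4a4b* cluster, though not with TMM factors, and in the *Cd74* cluster, beside 21% and 21.5% of all genes. The part in the counts of the *Apoe* cluster of the WT cell with the most cathepsin UMIs was not tested.

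Over the 18 clusters of 50 or more cells, both libraries summed, the cathepsins had separate patterns. The Pearson correlation of log2 levels was 0.93 between *Ctsb* and *Ctsz* and between *Ctsb* and *Ctsc*, and 0.92 between *Ctsb* and *Ctsa*. It was 0.54 between *Ctsl* and *Ctsd* and -0.64 between *Ctsl* and *Ctsw*. The points share the pooled libraries and the clusters were made from the same genes, so the values are descriptions. Among 10697 genes with 200 or more UMIs, those most like *Ctsl* began with *Gpr162* (0.90), *Rtn3* (0.89), *Tax1bp1* (0.88), *Spsb3* (0.88), *Capn10* (0.88) and *Mr1* (0.88), and *Mnat1* (0.87), *Atp6ap2* (0.87) and *B230118H07Rik* (0.86) were also among them. Without the *Cd74* and *Apoe* clusters *Rtn3* (0.96), *Cdk20* (0.95) and *Stamos* (0.95) came first, and *Tmem120b*, *Gpr162*, *Zfp101*, *Cnot6*, *Mnat1* and *Nkap* were among those that came next (0.92 to 0.94). The 3 genes most like *Ctss* were *S100a6* (0.98), *Irf7* (0.97) and *Neurl3* (0.96), and those most like *Ctsb* were *Lst1* (0.98), *Glrx* (0.97) and *Apobec1* (0.97). *Twf1* (0.95) and *Tpp1* (0.95) were among those most like *Ctsd*. For *Ctsz* they were *Rab32* (0.97), *Aif1* (0.96) and *Cd68* (0.95), and for *Ctsw* *Igfbp4* (0.94), *Ms4a4b* (0.92) and *Rapgef4* (0.92). For *Ctsc* they were *Notch2* (0.95), *Eif4ebp1* (0.95) and *Creg1* (0.94), and for *Ctsa* *Atp6v1b2* (0.97), *Pde4dip* (0.97) and *Selenop* (0.97).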

How the data were processed

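Thymus cells were run on the 10x Genomics Chromium 3′ platform. The authors deposited UMI counts per gene and cell in 1 matrix, made per the labels with Cell Ranger 3.0.2, STAR and Seurat on mm10, together with cluster numbers at resolutions 1.5, 1.8 and 2. Their gene annotation was not given in the sources used here. Every cell of the matrix was used, and cells were assigned to WT or KO by the WT or KO in the cell name, which has Cdc45 where the sample titles have cdc42. Rows were matched by symbol to GENCODE vM21 (19797 of 20282).

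For each cluster the counts of a library's cells were added up and expressed as CPM with Poisson intervals. The log2 ratio of KO over WT was taken after adding 0.5, with an exact conditional binomial interval, and shares had Clopper-Pearson intervals, all at 95%. *Rag1* clusters held at least 2000 *Rag1* and *Cd5* clusters at least 1000 *Cd5* CPM; other groups were the cluster highest in the gene. Calls needed 20 UMIs and 1.5-fold. Thinned shares are the exact expectation at 1000 UMIs. The interval was tested on simulated data with 200 changed genes, and covered the true ratio for 95.6% of 12806 genes (*Rag1* clusters) and 96.2% of 9385 (*Ms4a4b* cluster). The simulated counts were Poisson, as the interval assumes. This therefore checks the calculation only, and says nothing of spread between cells or mice.

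The named genes were the members, genes of the lists on which a result turned, *Cdc42*, and the genes most alike by Pearson correlation of log2(CPM + 10), 10 for *Ctsl* and 3 for each other member. Some of these genes are not reported here. The members, the lists and the tests were chosen with earlier results of these data known. Alternatives were other scalings (edgeR 4.0.16, DESeq2 1.42.0), other cells, clusters and minimums. Scrublet (scanpy 1.11.5) called 2 WT and 0 KO cells doublets and so did not work as a caller; as an alternative the 437 WT and 499 KO cells with the highest scores were left out. Python 3.11.15, SciPy 1.17.1 and R 4.3.3 were used.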

Additional observations from a re-analysis of the deposited data

Results flagged for a closer look

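For 6 of the cathepsins the difference between the libraries had opposite signs in different cluster groups, with the counting interval clear of 0 on both sides. The difference between the groups was not tested, since each genotype was 1 library. *Ctsw* had log2 ratios of KO over WT of 0.93 in the *Rag1* clusters, at 29 and 79 UMIs, and -1.18 in the *Itm2a* cluster, 2.11 apart. *Ctsa* had 0.54 in the *Ms4a4b* and -0.96 in the *Apoe* cluster, 1.4995 apart. *Ctsc* had 0.31 in the *Itm2a* and -1.01 in the *Cd74* cluster, 1.32 apart. *Ctsd* had 0.44 in the *Ms4a4b* and -0.67 in the *Apoe* cluster, 1.11 apart. *Ctsz* had 0.45 in the *Itm2a* and -0.61 in the *Cd74* cluster, 1.06 apart. *Ctsb* had 0.39 in the *Cd5* clusters and -0.51 in the *Apoe* cluster, 0.89 apart. The low side of 5 of the 6 lies in the *Cd74* or *Apoe* cluster, whose make-up differed between the libraries. Without the 1 WT cell that held the most cathepsin UMIs of the *Apoe* cluster, the interval there held 0 for *Ctsa*, *Ctsd* and *Ctsb*. With TMM factors the interval of the high side held 0 for *Ctsa*, *Ctsc*, *Ctsd* and *Ctsz*.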

How the results depend on the processing

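The lower KO level of *Ctsl* kept its direction under all 11 alternatives in the *Rag1*, *Cd5*, *Itm2a* and *Ms4a4b* clusters. In the *Rag1* clusters the log2 ratio, -2.84 as reported, was -2.88 (TMM) and -2.89 (DESeq2) when scaled by these factors, chosen with the other *Rag1* alternatives after seeing the data. In the *Itm2a* cluster (-1.50) *Ctsl* was -1.11 without the cells of highest doublet scores and -2.12 with the *Itm2a* cluster of resolution 1.8, as with that of resolution 2. In the *Ms4a4b* cluster (-1.15) *Ctsl* was -1.59 without the cells of highest doublet scores and -0.76 without the cells holding a UMI of 8 macrophage and B cell genes. *Ctsw* in the *Ms4a4b* cluster (-0.14) was -0.40 (TMM) and -0.36 (DESeq2), with intervals that left out 0 (-0.59 to -0.21 and -0.55 to -0.18). The other 46 values for these 5 results lay within the interval reported. These scalings shift the median of all genes by -0.26 and -0.22 there and by -0.17 in the *Itm2a* cluster. The cause of the other moves was not tested. In the *Apoe* cluster the gaps of *Ctss*, *Ctsb* and *Ctsd* shrank when 1 WT cell was left out, an alternative added after seeing the data. No KO cell was left out in return.

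Of the other values 423 lay within their intervals, 21 moved and 6 reversed. *Ctss* in the *Itm2a* cluster (-1.61) was 1.24 with the clusters of resolution 1.8 and of 2. In the *Cd74* cluster *Ctsl* (-1.10) was 0.83 on 10 and 16 UMIs in the cells with fewer than 5 B cell UMIs, an alternative added after seeing the data. As a mean over cells it was 0.022. *Ctss* (-0.70) and *Ctsz* (-0.61) there were 2.27 on 0 and 2 UMIs without the cells holding macrophage or B cell UMIs.

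Counts over all genes depend on the minimum. Genes lower and higher by 1.5-fold numbered 334 and 753 in the *Rag1* clusters as reported, 1952 and 3393 with a minimum of 1 UMI and 127 and 377 with 50. In the same order they were 351 and 692, 2549 and 3684, 108 and 321 (*Cd5*), 485 and 1106, 2789 and 4063, 215 and 604 (*Itm2a*), 532 and 2012, 2785 and 5093, 265 and 1360 (*Ms4a4b*), 744 and 1025, 3354 and 3604, 282 and 349 (*Cd74*) and 158 and 152, 3214 and 3549, 44 and 35 (*Apoe*). DESeq2 size factors gave 854 and 576 (*Itm2a*) and 954 and 1033 (*Ms4a4b*), totals without ribosomal and mitochondrial genes gave 1260 higher (*Ms4a4b*), and TMM factors 102 lower (*Apoe*). No replicate could be left out and no paired analysis was possible because each genotype was 1 pooled library. Depth limits *Ctss* and *Ctsw* in DP cells and every member in the *Apoe* cluster, where 3 UMIs are 71.0 CPM in WT.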
